A study of Homo sapiens with 8 samples.

Results

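The proteasome subunit genes were followed in the 2 layers of MCF10A-5E acini. Members were all probes whose deposited gene symbol starts with PSM, a letter from A to G and a number: 47 of 20589 probes, for 42 of 18189 gene symbols. The rule uses names and no measured value. MCF10A-5E is a clone of MCF10A, an established human mammary epithelial line that is immortal but does not form tumours. It was grown for 6 days on and under Matrigel, a basement membrane extract, with EGF, insulin, hydrocortisone, cholera toxin and horse serum, so that both groups shared every agent. Outer cells, attached to the matrix, and inner cells, not attached to it, were cut by laser microdissection from 8 µm sections of day 6 acini, about 50 cells per sample. Poly(A) PCR amplified the RNA. Each layer had 4 HumanRef-8 BeadChip arrays, and nothing in the labels ties a sample to a separate culture, so the p-values cover the spread among these samples alone, and that spread may be technical.

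The proteasome is the protease that degrades proteins tagged with ubiquitin. Its 20S core is a barrel of alpha and beta rings, in which PSMB5, PSMB6 and PSMB7 carry the proteolytic sites. The 19S cap, made of PSMC ATPases and PSMD subunits, binds ubiquitinated proteins, unfolds them and feeds them to the core. In the immunoproteasome, which interferon induces, PSMB8, PSMB9 and PSMB10 take the places of PSMB5, PSMB6 and PSMB7, and the PA28 cap of PSME1 and PSME2 can replace the 19S cap.

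Values are log2 intensities after background correction and quantile normalization, and differences are outer minus inner. Because arrays are scaled to each other, a change in the total RNA of a layer is not seen, and fewer cells of a type and less RNA per cell cannot be told apart. An array detected 6429 to 7000 probes (detection p under 0.01), with mean intensities from 344.4 to 533.0. The number of arrays limits the precision. The basal markers KRT5, KRT14, KRT17 and TP63 were detected on all 8 arrays, while the CDH1 probe was detected on 0 arrays. Summed intensity of these 5 markers was 3285 to 4980 on inner and 3920 to 4593 on outer arrays. Leukocytes are rich in immunoproteasome: of 9 of their markers 1 was tested (CD68), with a difference of -0.49. CD3E and CD3D were detected on 0 arrays, CD14 on 3 inner and 0 outer arrays, and 1 probe of PTPRC on 1 outer array. Summed intensity of the leukocyte list was 483.1 to 757.1 on inner and 444.7 to 705.9 on outer arrays. Of 4 endothelial markers 0 were detected on any array, with a summed intensity of 133.7 to 205.0 on inner and 150.8 to 182.4 on outer arrays. Of 6 fibroblast markers 2 were tested, COL1A2 and DCN. Summed intensity of the fibroblast list was 1528 to 4768 on inner and 1525 to 4536 on outer arrays. Most of it came from a DCN probe detected on all 8 arrays, with intensities of 1202 to 4465 and a difference of 0.25.

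Most proteasome genes that could be measured had similar levels in the layers, and no member passed the test. Of the 47 probes 39, for 38 genes, were tested because 4 or more arrays detected them, and 35 were detected on all 8. Of the 39, 17 were higher and 22 lower in outer cells, with a median log2 difference of -0.05, beside 0.01 over all 6698 probes tested. Higher values made up 43.6% of the members and 50.6% of all probes tested. The smallest adjusted p of a member in limma was 0.468, against a threshold of 0.05 that 4 probes (0.0597%) passed in all. At an unadjusted p below 0.05 there was 1 member (2.56%), against 8.06% of all probes tested. That member was a PSME1 probe whose inner arrays alone met the detection filter. The 4 values of one layer lay apart from those of the other for 1 member (2.56%), PSMB1, against 5.26% of all probes.

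How large a difference could be was read from its 95% interval, taken per probe with the spread moderated by limma. The whole interval lay within 2-fold in either direction for 26 of the 39 members (66.7%), against 24.9% of all probes tested. This share depends on brightness: among probes with a mean log2 intensity of at least 10 it was 85.2% of 27 members and 57.9% of all 1923 probes. Above that limit the sets were not matched for brightness. The intervals of the other 13 reached beyond 2-fold: PSMA1 variant 2, PSMA2, PSMA6, PSMD6, PSMD11, PSMB8 variant 1, PSME1 variant 2, and the 6 chaperones and other regulators.

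**Figure D1:**
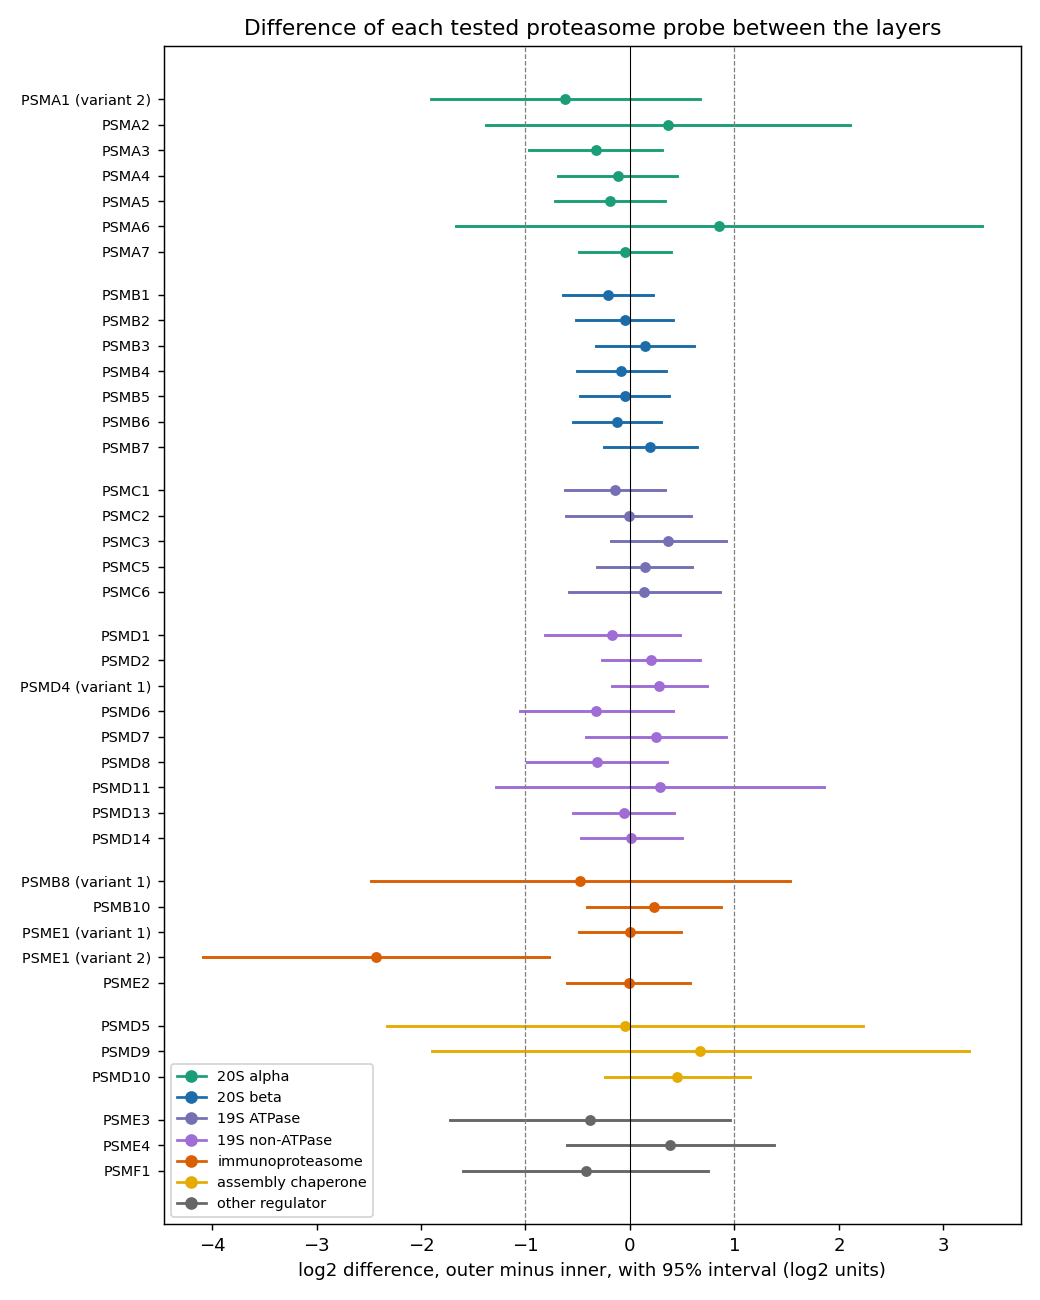
Log2 difference (outer minus inner, log2 units) of each of the 39 tested probes, with its 95% interval, coloured by class. Dashed lines mark a 2-fold difference. Intervals of 26 probes lie between these lines, and the interval of 1 probe, variant 2 of PSME1, leaves out 0.

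In the 20S core, 4 of 14 tested probes were higher and 10 lower in outer cells, with a median log2 difference of -0.07. The beta rings enclose the chamber in which proteins are cut. All 7 constitutive beta genes were tested, none differed by more than 1.2-fold, and all 7 intervals lay within 2-fold. PSMB5, the subunit with the chymotrypsin-like site, had log2 intensities of 13.05, 12.84, 12.92 and 12.85 on inner replicates 1 to 4 and of 12.74, 12.87, 12.89 and 12.96 on outer replicates 1 to 4. The layers overlapped, with a difference of -0.05 and a 95% interval of -0.48 to 0.38. For PSMB6, the caspase-like subunit, the inner arrays gave 10.11, 9.93, 10.17 and 10.05 and the outer arrays 9.88, 10.00, 9.95 and 9.93. Its difference was -0.12 (95% interval -0.54 to 0.30), and the layers again overlapped.

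PSMB7, the trypsin-like subunit, lay at 12.46, 12.25, 12.24 and 12.39 on inner and at 12.71, 12.40, 12.41 and 12.58 on outer arrays. This was the highest difference among the beta subunits, 0.19 (95% interval -0.25 to 0.64), and inner replicate 1 lay within the outer range. PSMB1, a beta subunit without a proteolytic site, was the 1 member whose layers lay apart, with 13.04, 13.28, 13.29 and 13.10 on inner and 13.03, 12.90, 12.94 and 13.00 on outer arrays. Its lowest inner and highest outer values nearly touched, and the difference of -0.21, with a standard error of 0.18, gave an unadjusted p of 0.292 and an adjusted p of 0.839 in limma. With a variance model that follows intensity the unadjusted p was 0.0218 and the adjusted p 0.525. Of the others, PSMB2 was at -0.05, PSMB3 at 0.14 and PSMB4 at -0.08.

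The alpha subunits form the outer rings of the core and its gate, and their probes varied more. Of 7 tested probes 2 were higher and 5 lower, and 4 intervals lay within 2-fold. PSMA7 was at 12.16, 11.90, 11.80 and 11.85 on inner and at 11.87, 11.87, 11.88 and 11.90 on outer arrays. Its outer SD of 0.02 and its difference of -0.05 (95% interval -0.49 to 0.39) place its outer arrays within the inner range of 11.80 to 12.16. PSMA3 (-0.33), PSMA4 (-0.12) and PSMA5 (-0.19) lay in the same direction with intervals within 2-fold.

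PSMA6 had the highest difference of any member, at 0.85, and values from near background to bright in both layers: 5.66, 8.28, 7.90 and 10.26 on inner and 9.20, 9.98, 9.64 and 6.67 on outer arrays. The interval of -1.67 to 3.37 spans both directions (unadjusted p = 0.457, adjusted p = 0.891 in limma). PSMA2 was at 10.45, 10.53, 7.79 and 10.34 on inner and at 11.04, 10.39, 8.76 and 10.38 on outer arrays, with replicate 3 low in both layers. Its difference of 0.36 (95% interval -1.38 to 2.10) became -0.30 without inner replicate 3. PSMA8, the testis subunit, was detected on 0 arrays, with intensities of 30.1 to 46.4.

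In the 19S cap, 8 of 14 tested probes were higher and 6 lower in outer cells, with a median log2 difference of 0.08, which became -0.02 without outer replicate 2. Intervals of 12 of the 14 lay within 2-fold. Per array, the mean log2 intensity of the tested cap probes was 10.88 to 11.11 in inner and 11.05 to 11.15 in outer cells, and that of the tested core probes 11.19 to 11.50 and 11.22 to 11.44.

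The ATPases form the ring of the cap that unfolds substrates. Of 5 tested probes 3 were higher and 2 lower, and all 5 intervals lay within 2-fold. PSMC3 had the highest difference in the cap, with 11.29, 11.32, 11.54 and 10.83 on inner and 11.80, 11.70, 11.34 and 11.60 on outer arrays. The difference of 0.37 had a standard error of 0.24 (unadjusted p = 0.159, adjusted p = 0.769 in limma), and outer replicate 3 lay within the inner range. PSMC1 was the lowest ATPase, with 13.22, 13.39, 13.47 and 13.41 on inner and 13.18, 13.06, 13.56 and 13.13 on outer arrays. Outer replicate 3 held the highest of its 8 values, and the difference was -0.14 (95% interval -0.62 to 0.34). PSMC2 was at -0.01, and PSMC5 and PSMC6 were both at 0.14. The PSMC4 probe, made for transcript variant 2, was detected on 0 arrays, with intensities of 26.8 to 47.2, which does not show that the gene is silent.

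The other cap subunits recognise and process ubiquitin chains or hold the cap together. Of 9 tested probes 5 were higher and 4 lower, and 7 intervals lay within 2-fold. PSMD4, a ubiquitin receptor, was at 11.82, 11.71, 11.96 and 11.54 on inner and at 11.95, 12.13, 11.94 and 12.14 on outer arrays. Inner replicate 3 lay within the outer range, and the difference was 0.28 with a standard error of 0.20 (unadjusted p = 0.193, adjusted p = 0.789 in limma). With a variance model that follows intensity the unadjusted p in limma was 0.0511 and the adjusted p 0.616. With no detection filter the limma values were 0.0303 and 0.871. PSMD11, a scaffold subunit of the cap, was detected on 2 inner and 2 outer arrays, at 4.59, 6.05, 6.09 and 4.49 on inner and 4.70, 6.66, 4.45 and 6.55 on outer arrays. It thus split each layer into 2 dim and 2 brighter arrays, and its difference of 0.28 has an interval of -1.28 to 1.85.

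PSMD6, a structural subunit, was the lowest of the cap, at 10.38, 10.27, 9.36 and 9.53 on inner and 9.57, 9.69, 9.85 and 9.15 on outer arrays. Its difference of -0.32 had an interval of -1.06 to 0.41. PSMD14, the deubiquitinase that removes ubiquitin chains at the cap, was at 0.01 (95% interval -0.47 to 0.50). PSMD1, PSMD2, PSMD7, PSMD8 and PSMD13 lay between -0.31 and 0.25. PSMD3 was detected on 1 inner array, with intensities of 38.7 to 64.7, and was not tested, which does not show that the gene is silent.

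**Figure D2:**
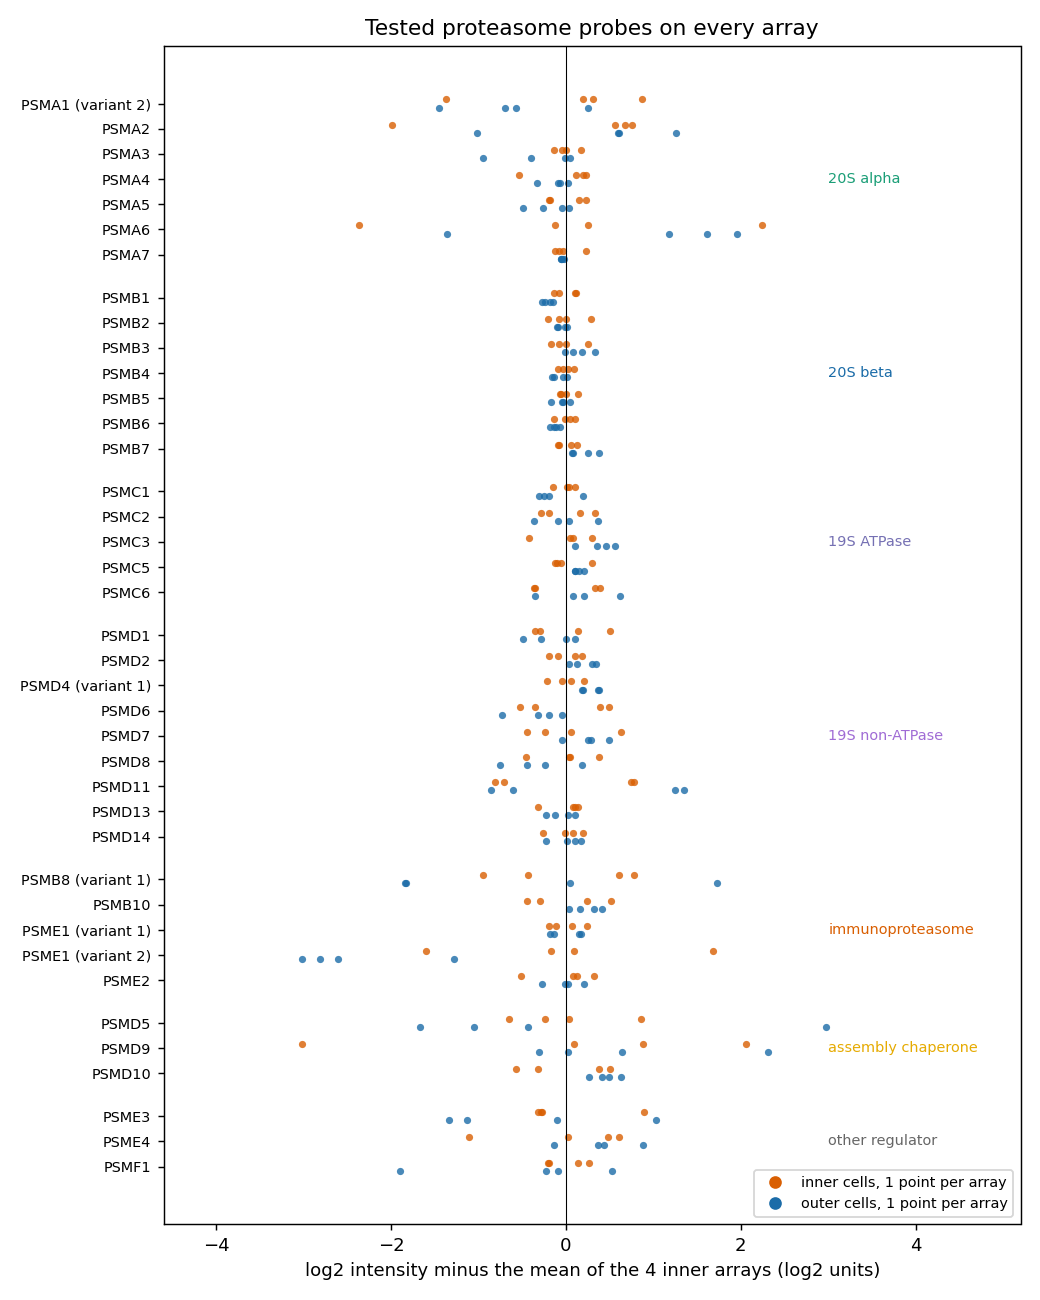
Log2 intensity of each tested probe on every array, minus the mean of its 4 inner arrays (log2 units), with inner arrays in orange and outer arrays in blue, 1 point per array. The beta subunits sit close to 0 in both layers, PSMB1 alone has separate layers, and PSMA6, PSMB8, PSMD5 and PSMD9 scatter over several log2 units within a layer.

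In the immunoproteasome, detection differed between members: PSMB9 was detected on 0 arrays, while PSMB8 variant 1, PSME1 variant 1 and PSME2 were detected on all 8. Of 5 tested probes 2 were higher and 3 lower in outer cells, with a median log2 difference of -0.01. PSMB9 had intensities of 28.9, 35.0, 27.9 and 27.4 on inner and 32.4, 34.5, 31.0 and 32.4 on outer arrays. The inferred background mean of an array was 31.1 to 38.5. The PSMB9 probe, made for transcript variant 1, was thus not above background in either layer, which does not show that the gene is silent. PSMB10 was detected on 3 inner and 4 outer arrays, with intensities of 56.9 to 70.7 on inner and 65.3 to 84.96 on outer arrays. On the log2 scale it was at 6.16, 5.19, 5.34 and 5.88 on inner and at 5.68, 5.80, 6.06 and 5.96 on outer arrays, a difference of 0.23 (95% interval -0.41 to 0.87).

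PSMB8 variant 1 was detected on all 8 arrays but differed between arrays of one layer more than between layers. It was at 9.46, 7.74, 8.25 and 9.29 on inner and at 8.72, 6.85, 10.42 and 6.84 on outer arrays. The highest and the lowest of the 8 values were both outer ones, and the difference of -0.48 had an interval of -2.48 to 1.53 (unadjusted p = 0.597, adjusted p = 0.934 in limma). The direction turned to 0.07 with neqc on all probes.

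PSME2, the beta chain of PA28, was at 12.44, 11.80, 12.64 and 12.40 on inner and at 12.05, 12.34, 12.31 and 12.53 on outer arrays. Its layers overlapped, with a difference of -0.01 (95% interval -0.60 to 0.57), and the direction turned in 6 of 20 other settings. PSME1, the alpha chain, has 2 probes. The probe for variant 1 was at 12.66, 12.30, 12.23 and 12.49 on inner and at 12.24, 12.28, 12.57 and 12.59 on outer arrays, a difference of 0.00 (95% interval -0.49 to 0.49).

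The probe for variant 2 of PSME1 was the member with the smallest p. Its log2 intensities were 9.24, 5.96, 7.64 and 7.38 on inner and 6.28, 4.75, 4.94 and 4.53 on outer arrays. It was detected on 4 inner and 1 outer arrays, so the inner layer, where it was higher, met the detection filter alone. Outer replicate 1 was above inner replicate 2, so the layers overlapped by that pair. The difference was -2.43 with a standard error of 0.71 and a 95% interval of -4.09 to -0.77 (unadjusted p = 0.00986, adjusted p = 0.468 in limma), and it did not pass the adjusted threshold. Most outer values lay at background, and the size of the difference varied with the processing. It was -0.39 with neqc on all probes (unadjusted p = 0.112 in limma). With no background correction it was -2.05 (unadjusted p = 0.0118 in limma), with an offset of 50 -1.71 and with cyclic loess -2.39. Over all settings other than the main one that tested this probe, the difference was -2.94 to -0.39. Why the size varied was not tested.

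**Figure D3:**
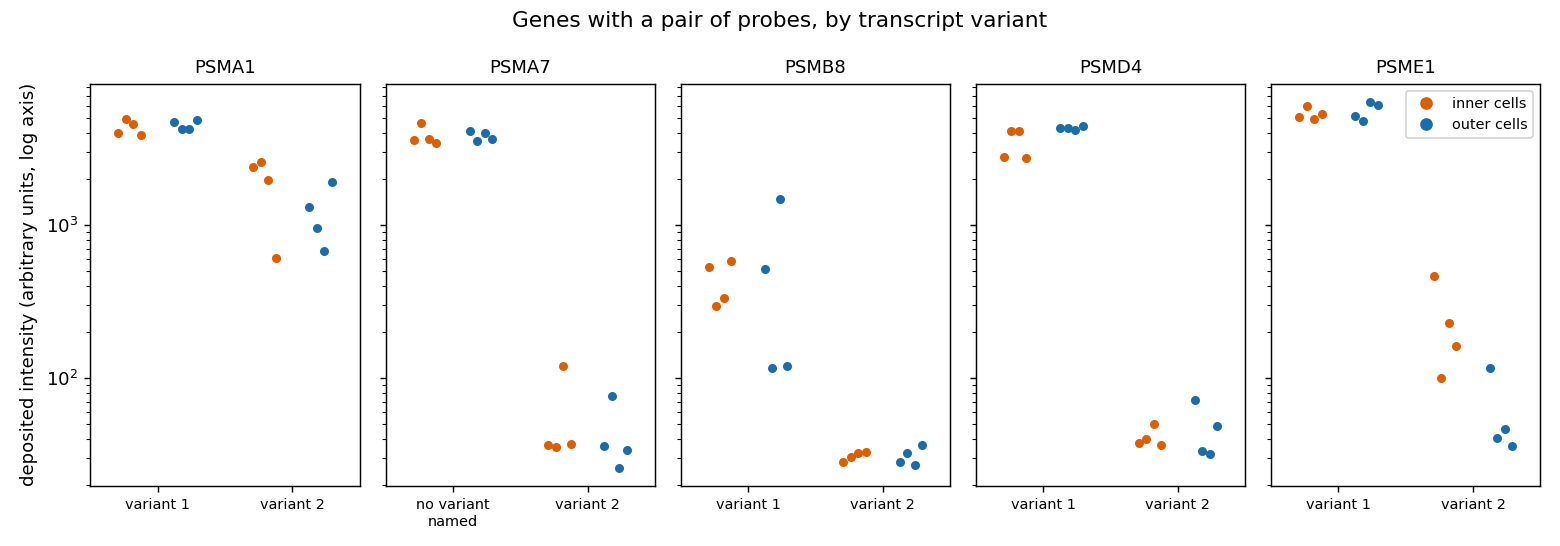
Deposited intensity (arbitrary units, log axis) on every array for the 5 genes with 2 probes, by the transcript variant that the deposited definition names, inner arrays in orange and outer arrays in blue. Variant 2 probes of PSMB8 and PSMD4 were detected on 0 arrays and that of PSMA7 on 1 array of each layer, and variant 2 of PSME1 is the probe whose layers differ most.

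For the other 4 genes with 2 probes, 1 probe of each pair was not tested. PSMA1 variant 2 had the lowest difference of the alpha subunits, at 11.58, 11.02, 10.91 and 9.35 on inner and 10.14, 10.02, 9.26 and 10.96 on outer arrays. The difference of -0.62 had an interval of -1.90 to 0.67, and without inner replicate 4, its lowest inner array, it was -1.07 (unadjusted p = 0.0455, adjusted p = 0.677 in limma). The probe for PSMA1 variant 1 had intensities of 3891 to 4986 but a detection p below 0.01 on 1 inner and 1 outer array only, so it missed the filter. It belongs to the probes whose detection p does not follow their signal. With a filter on intensity in its place it was tested and differed by 0.00 (95% interval -0.44 to 0.45). The PSMA7 probe for variant 2 was detected on 1 inner and 1 outer array. The variant 2 probes of PSMB8 and PSMD4 were detected on 0 arrays, at intensities of 26.9 to 36.2 and 31.8 to 71.5.

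None of the 6 intervals of the assembly chaperones and other regulators lay within 2-fold. The chaperones PSMD5, PSMD9 and PSMD10 help build the base of the 19S cap and are not part of the finished particle. PSMD9 was at 8.81, 8.03, 10.00 and 4.91 on inner and at 7.64, 10.25, 8.58 and 7.97 on outer arrays, so that inner replicate 4 was alone at background. Its difference of 0.67 (95% interval -1.90 to 3.24) became -0.34 without that array. PSMD5 was at 7.39, 7.12, 6.70 and 8.21 on inner and at 5.68, 6.30, 6.92 and 10.33 on outer arrays. Outer replicate 4 was its highest array and the other 3 outer values were among the lower ones, with a difference of -0.05 (95% interval -2.32 to 2.23) that became -1.05 without that array. PSMD10 was steadier, at 9.66, 8.70, 8.96 and 9.78 on inner and 9.54, 9.91, 9.69 and 9.77 on outer arrays, with a difference of 0.45 (95% interval -0.24 to 1.14).

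PSME3 forms the nuclear PA28 gamma cap. It was at 10.96, 10.91, 10.95 and 12.13 on inner and at 11.13, 10.10, 12.27 and 9.90 on outer arrays, a difference of -0.38 (95% interval -1.72 to 0.96). As with PSMB8, outer replicate 3 was its highest array and outer replicates 2 and 4 its lowest. PSME4, the PA200 activator, had the highest difference of the regulators, with 11.00, 11.45, 9.87 and 11.58 on inner and 11.86, 11.34, 10.84 and 11.40 on outer arrays. Its difference of 0.39 (95% interval -0.61 to 1.38) was 0.02 without inner replicate 3. PSMF1, the inhibitor PI31, was the lowest, with 11.34, 11.69, 11.82 and 11.36 on inner and 12.08, 11.32, 9.65 and 11.46 on outer arrays. Outer replicate 3 was its lowest array, and without it the difference of -0.42 (95% interval -1.59 to 0.75) became 0.07.

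The classes differed in how far arrays of one layer spread. The residual SD of a probe, its spread within the layers on the log2 scale, was 0.08 to 0.16 for the beta subunits, with a median of 0.10. It was 0.11 to 1.71 for the alpha subunits, 0.14 to 0.41 for the ATPases, 0.15 to 1.04 for the other cap subunits, 0.19 to 1.35 for the immunoproteasome, 0.39 to 1.74 for the chaperones and 0.62 to 0.88 for the other regulators. The median over all probes tested was 0.75. Since bright probes spread less, the 27 members with a mean of at least 10 are set beside the 1923 probes with such a mean. Their medians were 0.19 and 0.35, and the sets were not matched for brightness above that limit. These are descriptions, and nothing here tests whether the classes differ in spread.

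The bead standard error measures the spread of beads on an array and covers neither amplification nor the choice of cells. Each member value rests on 21 to 70 beads, and the median bead standard error of the tested members was 3.15% to 8.13% of the intensity. For PSMA6 it was 6.23%, beside intensities of 55.7 to 1123 on inner and 107.8 to 924.9 on outer arrays. For PSMB5 it was 3.57%, beside intensities of 6909 to 8614 on inner and 7227 to 8183 on outer arrays.

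**Figure D4:**
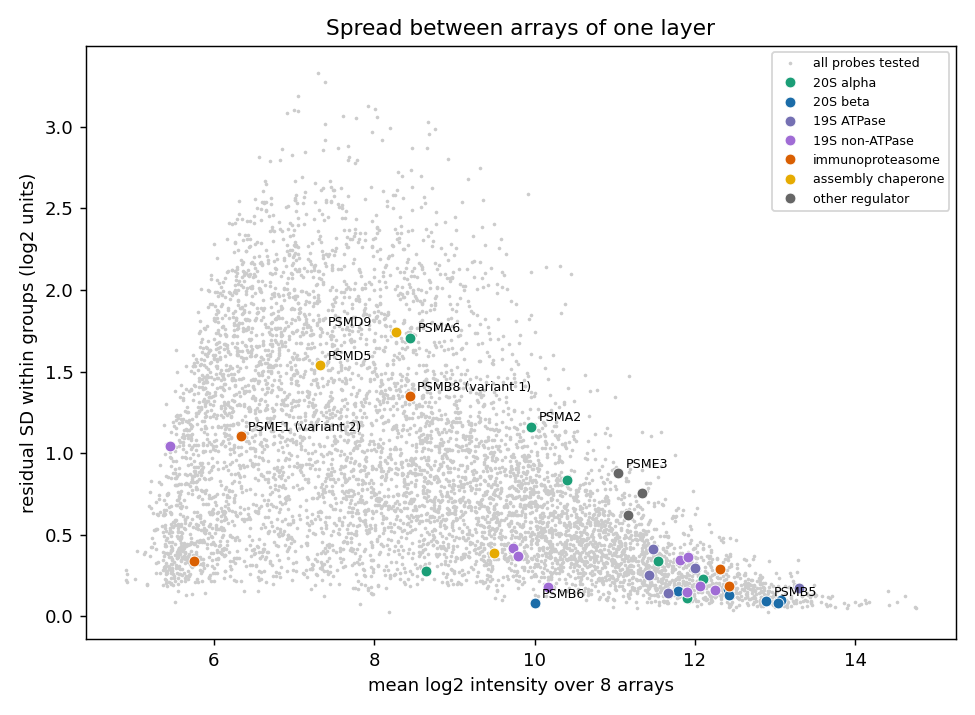
Residual SD within the layers (log2 units) against the mean log2 intensity over 8 arrays, for all 6698 probes tested in grey and for the 39 proteasome probes by class. The beta subunits lie at 0.08 to 0.16, and PSMA6, PSMD9, PSMD5 and PSMB8 lie above 1.3.

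Proteasome partners and controllers were taken from a list of 29 genes, of which 23 had a probe, 20 were tested and 0 of 22 tested probes had an unadjusted p below 0.05 in limma. Of these 22 probes 8 were higher and 14 lower, with a median of -0.12. NFE2L1, the transcription factor that induces proteasome genes when the proteasome is inhibited, was at 10.65, 10.67, 10.42 and 9.45 on inner and at 10.16, 7.43, 9.28 and 9.0 on outer arrays. Its difference was -1.33 with a standard error of 0.59 (unadjusted p = 0.0562, adjusted p = 0.638 in limma), and outer replicate 1 lay within the inner range. Leaving out 1 array gave -1.74 (without outer replicate 1) to -0.81 (without outer replicate 2). The unadjusted p in limma was below 0.05 with neqc on all probes (0.0391), with detection on all 8 arrays (0.0483), without inner replicate 4 (0.0370) and without outer replicate 1 (0.0173). No probe of POMP, the chaperone of core assembly, was found under that symbol.

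Interferon response and antigen processing genes share inducers with the immunoproteasome. Of 11 listed genes 10 had a probe and 6 were tested, with 2 probes higher and 5 lower and a median difference of -0.19. Of the 7 tested probes 1 had an unadjusted p below 0.05 in limma, against 8.06% of all probes tested. It was IRF1, a transcription factor of immunoproteasome genes. Its values were 9.51, 7.87, 11.05 and 6.98 on inner and 8.30, 5.60, 4.83 and 4.68 on outer arrays. The layers overlapped by outer replicate 1, and the difference of -3.00 had a standard error of 1.11 (unadjusted p = 0.0275, adjusted p = 0.566 in limma). IRF1 was detected on 4 inner and 2 outer arrays, so the inner layer, where it was higher, met the detection filter alone. With neqc on all probes the difference was -1.15 (unadjusted p = 0.130 in limma), and without 1 array it was -3.82 to -2.26. The unadjusted p in limma was 0.0578 to 0.0707 without inner replicate 1 or 3 or without outer replicate 2, 3 or 4. TAP1, a chain of the peptide transporter, was at -0.71 (unadjusted p = 0.110, adjusted p = 0.729 in limma).

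Promoters were searched for a motif of NFE2L1, a motif of IRF1 and the CCAAT box, to show which members hold them. RefSeq promoters (GRCh38.p14) were found for 37 of the 42 genes, in 45 windows of 250 bases before a start, some of 1 gene, and both strands were searched. The core of the antioxidant response element, TGACNNNGC, a type of site that NFE2L1 binds, was in 10 of 45 windows (22.2%), against 10.9% of all 35116 windows. By part, 2 of 15 core windows (13.3%) and 2 of 17 cap windows (11.8%) held it, near the share of all windows. The other matches were in 3 of 6 immunoproteasome, 2 of 3 assembly chaperone and 1 of 4 other regulator windows. The core of the interferon-stimulated response element, which IRF1 can bind, was searched as a pair of GAAA runs with any 2 bases between them. It was in 4 windows (8.89%, against 3.02% of all), of PSMA4, PSMB4, PSMB10 and PSME2. The CCAAT box was in 17 windows (37.8%, against 32.0%). A match is a run of letters, not a site shown to be bound.

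The stretches below belong to PA28 and to PSMB10, whose values are given above, and capitals mark the match. The PSME1 stretch, chr14:24136078-24136146 on the plus strand, ends its antioxidant match 78 bases before the start. For PSME2, on the minus strand, the stretch at chr14:24146747-24146815 ends its antioxidant match 167 bases before the start, and that at chr14:24146611-24146668 ends its interferon match 19 bases before it. The PSMB10 stretch, chr16:67936851-67936901 on the minus strand, ends its interferon match 12 bases before the start.
PSME1, antioxidant core: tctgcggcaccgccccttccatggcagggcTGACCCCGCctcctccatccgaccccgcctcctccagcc
PSME2, antioxidant core: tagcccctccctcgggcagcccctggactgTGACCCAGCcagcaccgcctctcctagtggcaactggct
PSME2, interferon core: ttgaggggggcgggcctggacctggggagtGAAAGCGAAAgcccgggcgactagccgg
PSMB10, interferon core: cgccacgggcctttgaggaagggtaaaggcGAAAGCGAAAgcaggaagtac
The interferon matches of PSME2 and PSMB10 have the same 10 letters.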

How the data were processed

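Per the labels, RNA of about 50 cells per sample was amplified by poly(A) PCR and labelled with a fluorescent dye. Per the file headers, the deposited columns hold a bead-averaged intensity without background subtraction, a detection p-value, a bead standard error and a bead number. Another deposited table gives a ratio, in which the authors divided intensities by their array's mean, as its values show. Scanning software is not given in the sources used here.

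For 1535 of 20589 probes the detection p is not a whole multiple of 1/708 (tolerance 0.01 steps) on all arrays and often does not follow the intensity. neqc on all probes then infers a background SD of 262.5 to 391.3, against 6.24 to 12.4 from the other 19053. The main values therefore use normexp with the latter background, an offset of 16, quantile normalization and log2. neqc on all probes is an alternative, and results of both were known when this was chosen. A probe lacking beads on an array was dropped (1 probe). Detection (p under 0.01) on 4 or more arrays was required, and the rest were fitted with lmFit and eBayes (limma 3.58.1, R 4.3.3), with group as the only term and Benjamini-Hochberg adjustment over all 6698. Intervals use limma's moderated standard error and are not adjusted for the number of probes. The fit was also run on simulated arrays with independent normal noise at each probe's residual SD. The spread of the real arrays may differ from such noise, so no support is drawn from that run.

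Members and lists were chosen with earlier results of these data known. Named were members with an unadjusted p below 0.05 or separate layers, the catalytic and PA28 genes, the extremes of each class, and listed genes with an unadjusted p below 0.05 beside NFE2L1, POMP and TAP1. Other members are given by their difference. Some listed genes are not reported here and were left out of their lists.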

Additional observations from a re-analysis of the deposited data

Results flagged for a closer look

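In 5 of 84 groups of 4 values, a single array stood apart, and all 5 are inner arrays; by chance about 1 group in 20 does so. For PSMA2, inner replicate 3 had a log2 intensity of 7.79, below 10.34 to 10.53 on the rest of the layer. Inner replicate 3 also stood out for PSMC5, at 11.89 above 11.46 to 11.53. On inner replicate 2, PSMA4 lay at 8.17, below 8.82 to 8.94. Inner replicate 4 was low for PSMD13, at 9.89 below 10.28 to 10.34, and high for PSME3, at 12.13 above 10.91 to 10.96.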

How the results depend on the processing

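Each result was recomputed under 20 other settings, 8 of which leave out 1 array. The number of members with an adjusted p below 0.05 was 0 in all of them. Of the 39 tested members 23 kept their direction in every setting that tested them.

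Members with an unadjusted p below 0.05, 1 in the main setting, numbered 2 with neqc on all probes (PSMB1 and PSMD4), 2 with eBayes using trend and robust, 3 with no detection filter, 0 with detection required on all 8 arrays, where variant 2 of PSME1 is not tested, and 1 to 2 without 1 array. Members with separate layers, 1 in the main setting, numbered 2 with median scaling and 1 to 4 without 1 array. Layers separate more easily by chance when an array is left out. The share over all probes is not given for these settings, so these counts are not read as a result about the members. Related genes with an unadjusted p below 0.05, 1 in the main setting, numbered 2 with neqc on all probes, 2 with detection on all 8 arrays, 3 with a detection p below 0.05 on 1 array, 4 with no filter and 0 to 3 without 1 array. Probes past the adjusted threshold, 4 in the main setting, numbered 1 with neqc on all probes, 2 with an offset of 50, 0 with detection on all 8 arrays, 2 with no filter and 1 to 7 without 1 array. Probes with an unadjusted p below 0.05, 540 in the main setting, numbered 358 with detection on all 8 arrays and 1098 with no filter. The cause of these changes was not tested, except that the filters change how many probes enter.

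The cap median was -0.0227 to 0.134 without 1 array. Directions turned with neqc on all probes for PSMB8 (0.0737) and PSMD5 (0.41), and for PSMD5 with no background correction (0.032), an offset of 50 (0.0785) and the authors' scaled values (0.028). They turned with the authors' scaled values for PSME2 (0.0021), and with median scaling for PSMB5 (0.0015), PSMC2 (0.0311), PSMD13 (0.0051) and PSME2 (0.042). Without 1 array the ranges of members that turned were -0.30 to 0.82 for PSMA2, -0.0902 to 0.0289 for PSMA7, -0.12 to 0.0429 for PSMB2, -0.14 to 0.10 for PSMC2, -0.0237 to 0.30 for PSMC6, -0.29 to 0.0004 for PSMD1, -1.05 to 0.50 for PSMD5, -0.34 to 1.35 for PSMD9, -0.074 to 0.66 for PSMD11, -0.075 to 0.0927 for PSMD14, -0.0622 to 0.0826 for variant 1 of PSME1, -0.19 to 0.0913 for PSME2 and -0.74 to 0.0727 for PSMF1.

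The replicate number as a block left 0 probes past the adjusted threshold, against 4, and the same 1 member at an unadjusted p below 0.05, variant 2 of PSME1 (0.00216, adjusted p = 0.605 in limma). The labels do not say whether samples with the same number belong together. Deviations of arrays with the same number correlated at -0.01 to 0.04. Technical spread can hide a shared origin, so these values do not show that the samples were unrelated. Signal over background limits PSMB9, PSMB10, PSMA8, PSMD3, PSMD11 and the variant 2 probes of PSMA7, PSMB8, PSMC4, PSMD4 and PSME1.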
